A study of Gallus gallus with 10 samples.

Results

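LIN28B, HMGA2, IGF2BP1 and IGF2BP3 are genes of early development that are known to act together in the timing of progenitor programmes. They were chosen by name, and all 4 were present among the 12464 genes of the table and among the 9076 genes tested. The tissue was the retina of wild-type chicken embryos (Dekalb white eggs) at Hamburger and Hamilton stage 23, about embryonic day 4. In each of 5 embryos the lens of 1 eye was pulled out with forceps through a slit in the dorsal eye, and both retinas were taken 6 h later. The opposite eye, left intact, was the control, so the 10 libraries form 5 pairs. The control eyes had not been opened, so loss of the lens and the wound itself cannot be told apart. The comparison asks which transcripts of the early retina respond to loss of the lens.

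LIN28B is an RNA-binding protein that blocks the maturation of the let-7 microRNAs. In mammals let-7 in turn represses LIN28B, HMGA2 and the IGF2BP genes, so that the set is high in early embryos and falls as development proceeds. HMGA2 is an AT-hook protein that bends DNA and helps to keep progenitors dividing. IGF2BP1, first described in the chick as the zipcode-binding protein of beta-actin mRNA, and its relative IGF2BP3 bind, carry and stabilise mRNAs. The libraries held polyadenylated RNA, so mature let-7 was not measured.

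Levels are normalised read counts, scaled by the authors to totals of 979286 to 1033235 per library and not divided by gene length, so they compare samples and not genes. Effective library sizes read from the spacing of low values were 18671181 to 26005367 reads. Each retina is a bulk sample, in which fewer cells of a type and less RNA per cell cannot be told apart. Of 10 retinal progenitor markers, 9 were in the table, among them SIX6 at 238 ± 36.03 in the controls (SD, n = 5). Of these 9 markers 5 rose, 1 fell and 3 did not pass, and their summed level was 1155 to 1589 in control and 1431 to 1684 in operated retinas. Pigment epithelium markers summed to 347 to 845 and 322 to 440, with 0 of 6 tested higher and 2 lower, and 4 of 6 below the tested level called lower in the fit of all genes. Periocular mesenchyme markers summed to 203 to 392 and 230.2 to 316, with 1 of 5 tested higher and 2 lower, and 2 of 6 below the tested level called lower in the fit of all genes. In embryos 2 to 4 the mesenchyme sum was higher in the operated retina although the mean log2 change of the list was negative, the collagen gene COL5A1 being its most abundant member (117 to 200.3, adjusted p = 0.013). Red cell markers summed to 30.03 to 378 and 111 to 319, with 0 of 5 tested passing by limma and 4 at an unadjusted p under 0.05. Early neuron markers had 2 of 8 higher and 0 lower, vessel and blood cell markers 0 of 3 passing (0 at an unadjusted p under 0.05), and lens markers 1 of 2 higher and 1 lower. Over all tested genes 10.6% were called higher and 12.3% lower, and in the fit of all genes 10.1% were called lower. Of the mesenchyme markers TWIST1, TWIST2, FOXC1, FOXC2 and PRRX1 were not analysed here. Embryo 5 stood apart in these lists: its control retina had the highest pigment (845), mesenchyme (392) and red cell (378) sums of the 10 libraries.

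None of the 4 genes passed the test between operated and control retinas. They were called in 0 of 4 cases by limma at an adjusted p under 0.05 and in 0 of 4 at an unadjusted p under 0.05. Over all tested genes 22.9% were called, 10.6% higher and 12.3% lower. The median log2 change of the 4 genes was 0.0064, and that of all tested genes was -0.0013. In all 4 genes the 2 groups of retinas overlapped. Embryo 5 was highest for each of them in both eyes.

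**Figure D1:**
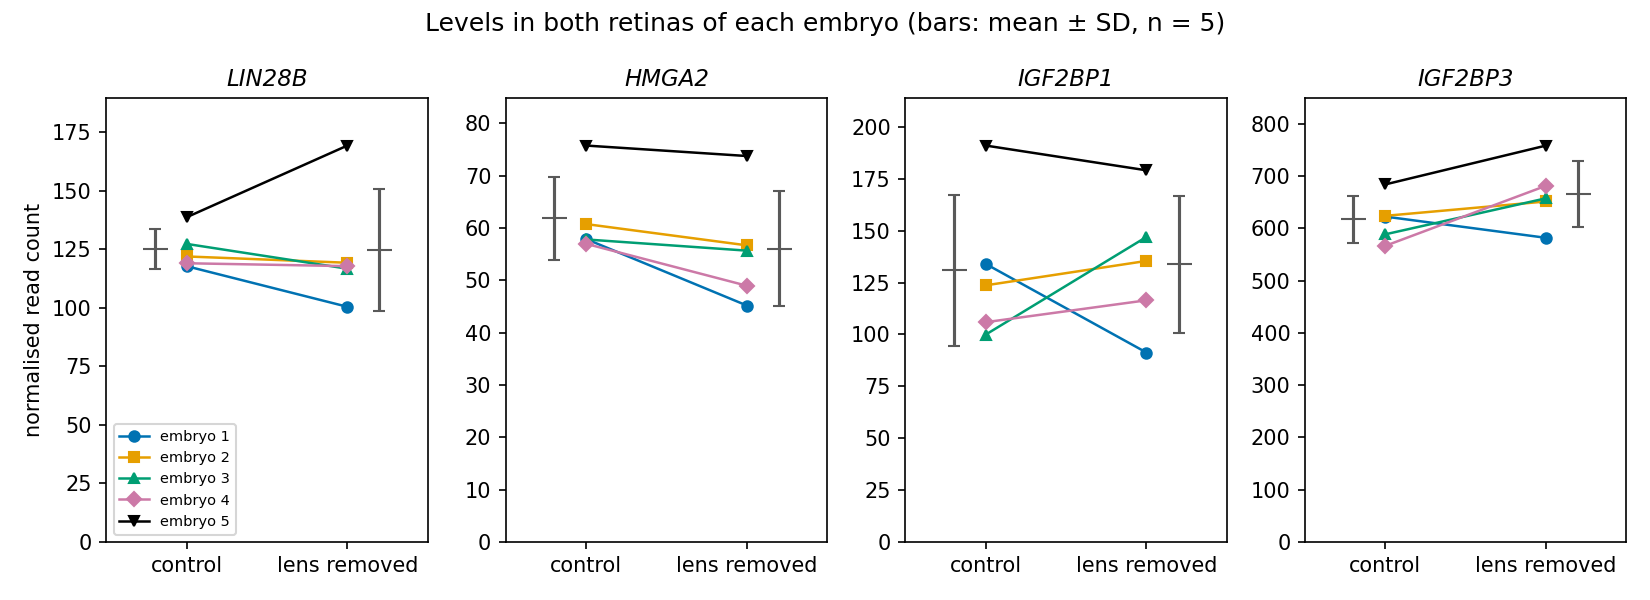
Normalised read count (vertical axes, from 0) of LIN28B, HMGA2, IGF2BP1 and IGF2BP3 in the control and the operated retina, 1 line per embryo, with grey bars for the mean ± SD of 5 embryos. The line of embryo 5 lies above the others in every panel, HMGA2 slopes down in 5 of 5 embryos, and IGF2BP1 slopes both ways.

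LIN28B, the let-7 antagonist, was at 118, 122, 127, 119 and 139 in the control retinas of embryos 1 to 5. In the operated retinas it was at 100.4, 119, 117, 118 and 169. The operated retina was below its control in 4 of 5 embryos, and in embryo 5 it was above it. The group means were 125 ± 8.51 and 125 ± 26.1 (SD, n = 5). The log2 change was -0.023 (SE 0.076, adjusted p = 0.85 by limma), with a 95% interval of 0.874-fold to 1.11-fold. The within-embryo differences were -14.7%, -2.21%, -8.31%, -1.03% and 22.1%. Each value rests on 2353 to 3306 reads, and counting alone gives a ratio of both eyes an error of 2.49% to 2.80% (1 SD). The differences in embryos 2 and 4 were smaller than that counting error, while those of embryos 1, 3 and 5 exceeded it. Without embryo 5 the log2 change was -0.0997 (adjusted p = 0.31), and without embryo 1 it was 0.029 (adjusted p = 0.79). The group means thus hide opposite differences beyond the counting error: embryos 1 and 3 were lower in the operated retina and embryo 5 was higher.

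HMGA2, the chromatin protein, was at 57.8, 60.7, 57.8, 56.9 and 75.7 in the control retinas. In the operated retinas it was at 45.2, 56.7, 55.6, 48.9 and 73.7. It was the member of the set with the same sign everywhere, lower in 5 of 5 operated retinas, a pattern that 17.2% of all tested genes shared. The means were 61.8 ± 7.91 and 56.02 ± 10.98 (SD, n = 5). The log2 change was -0.15 (SE 0.067, unadjusted p = 0.052, adjusted p = 0.14 by limma), with a 95% interval of -0.30 to 0.0014. An exact sign-flip permutation test over the 5 embryos gave p = 0.0625 (two-sided), the smallest value that 5 pairs allow. The difference was widest in embryo 1 (-21.9%) and embryo 4 (-14.1%). In embryos 3 and 5 it was -3.70% and -2.64%, within the counting errors of 3.85% and 3.58%. A total of 53.9% of all tested genes had a smaller absolute log2 change than HMGA2, so its size was near the middle of the table. HMGA2 rested on 1058 to 1805 reads, and in 4 of 10 libraries its total was not a whole number of reads (0.5 read over, within 0.1), so some of its reads had been counted in part.

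IGF2BP1, the zipcode-binding protein, was at 134, 124, 99.97, 106 and 191 in the control retinas. In the operated retinas it was at 91.3, 135, 147, 116 and 179. It was higher in 3 embryos and lower in 2, and the size of the difference varied more than for the other 3 genes. Embryo 1 differed by -31.9% and embryo 3 by 47.1%, against counting errors of 2.80% and 2.66%. The means were 131 ± 36.3 and 134 ± 32.9 (SD, n = 5). The log2 change was 0.035 (SE 0.13, adjusted p = 0.87 by limma), with a 95% interval of 0.836-fold to 1.26-fold. Only 7.76% of all tested genes had a larger SE. Embryos 1 and 3 thus differed in opposite directions, each by far more than the counting error, and the mean over embryos lay near 0.

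IGF2BP3, its relative, was at 622, 624, 588, 566 and 684 in the control retinas. In the operated retinas it was at 582, 651, 657, 681 and 758. The operated retina was higher in 4 of 5 embryos, with embryo 1 the exception. The means were 617 ± 44.5 and 666 ± 63.5 (SD, n = 5), and the log2 change was 0.11 (SE 0.063, adjusted p = 0.24 by limma). Its 95% interval ran from 0.977-fold to 1.19-fold. The within-embryo differences were -6.52%, 4.41%, 11.7%, 20.3% and 10.9%, each beyond a counting error of 1.10% to 1.19%. Without 1 embryo at a time the log2 change ran from 0.068 without embryo 4 (adjusted p = 0.59) to 0.16 without embryo 1 (adjusted p = 0.051). With the pigment level as a covariate it was 0.034 (adjusted p = 0.92), and with the mesenchyme level 0.032 (adjusted p = 0.88). With the red cell level it was 0.15 (adjusted p = 0.30).

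The differences of 1 gene against another within the same embryo do not depend on how a library was scaled. Relative to IGF2BP3, HMGA2 was lower in the operated retina of 5 of 5 embryos, by a mean log2 difference of -0.26 ± 0.13 (SD, n = 5). The exact sign-flip permutation test gave p = 0.0625, the smallest possible, and 0.375 after adjustment over the 6 pairs of genes. LIN28B lay above HMGA2 in 4 of 5 embryos (0.13 ± 0.15, exact p = 0.1875, adjusted 0.469). For the other pairs the exact p was 0.25 to 0.875. No pair passed, and 5 embryos could not have given an unadjusted p under 0.05 by this test.

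With all 5 embryos, the largest share of the sum of squares lay between embryos, and this rested on embryo 5 for HMGA2, IGF2BP1 and IGF2BP3. The shares were not adjusted for the number of independent contrasts, of which 5 embryos give more than operated against control does. A larger share between embryos is thus no evidence by itself of differences between embryos, and it is read beside the median gene. The mean of both eyes in embryo 5 was 1.31 times the mean of the other embryos for LIN28B, 1.36 times for HMGA2, 1.55 times for IGF2BP1 and 1.16 times for IGF2BP3. Embryo 5 was the highest embryo for 4 of 4 of these genes, and for 32.2% of all tested genes. On the log2 scale, differences between embryos made up 78.1% of the sum of squares of LIN28B, 79.8% of HMGA2, 69.4% of IGF2BP1 and 55.1% of IGF2BP3. The median over all tested genes was 44.3%. The difference between operated and control retinas made up 0.372%, 12.6%, 0.293% and 19.8% of it in the same order, and 20.03% at the median gene. Without embryo 5 the share between embryos was 49.0%, 34.7%, 17.9% and 11.3%, against a median of 27.9%. The share between operated and control retinas was then 29.6%, 46.2%, 2.32% and 30.9%, against a median of 29.0%, so that for HMGA2 and IGF2BP3 it exceeded the share between embryos. In the share between embryos, LIN28B and HMGA2 thus lay above the median gene also among the other 4 embryos, and IGF2BP1 and IGF2BP3 below it. The summed pigment markers were also highest in embryo 5 among the controls (845) and among the operated retinas (440), and the mesenchyme and red cell sums among the controls. Their part in the levels of the 4 genes was not tested.

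**Figure D2:**
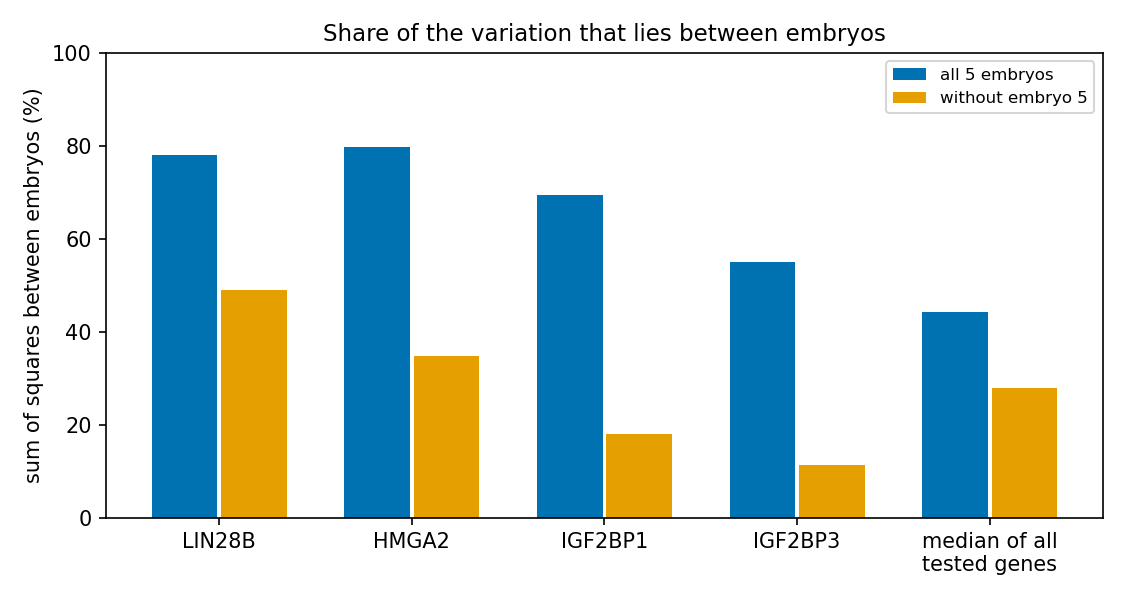
Share of the sum of squares of log2(value + 1) that lies between embryos (vertical axis, percent) for each gene and for the median of 9076 tested genes, with all 5 embryos (blue) and without embryo 5 (orange). Shares are not adjusted for the number of independent contrasts, so blue and orange bars compare with the median gene of their own colour. With 5 embryos the 4 genes lie at 55.1% to 79.8%, above the median gene at 44.3%, and without embryo 5 only LIN28B and HMGA2 do.

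Across the 10 libraries the 4 genes varied together, which is described here without a test because both retinas of an embryo share their embryo. Pearson's r was 0.88 between LIN28B and HMGA2, and 0.83 between IGF2BP1 and IGF2BP3. The other pairs gave 0.57 to 0.83, the highest being HMGA2 and IGF2BP1. Without embryo 5 (8 libraries) the first pair kept r = 0.82 and the second r = 0.72. The other pairs then ranged from -0.027, for HMGA2 and IGF2BP3, to 0.50, for HMGA2 and IGF2BP1. The likeness of the whole set thus rested on embryo 5. The 2 pairs named first kept most of their r, but they are also the pairs with the highest r without embryo 5.

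The genes of most similar pattern over the 10 libraries were also highest in embryo 5. For LIN28B they were EIF5A2, a translation factor (r = 0.95), RNF14, a ubiquitin ligase (r = 0.93), and YY2, a zinc finger factor (r = 0.91). HMGA2 ranked 9th among the genes most like LIN28B, and LIN28B ranked 70th among those most like HMGA2. IGF2BP3 ranked 849th for IGF2BP1, and IGF2BP1 ranked 632nd for IGF2BP3. For HMGA2 they were the mRNA-binding protein SERBP1 (r = 0.97), ANKLE2 (r = 0.96) and the retromer subunit VPS26B (r = 0.95). For IGF2BP1 they were the adhesion molecule KIRREL, the proteasome subunit PSMD11 and CDIP1, each at r = 0.99. For IGF2BP3 they were SPRED2, an inhibitor of Ras and ERK signalling (r = 0.98), ANKS1A (r = 0.97) and the chromatin protein MBD3 (r = 0.97). None of these 12 genes passed the test between operated and control retinas. SPRED2 came nearest, at 45.2 ± 9.38 and 56.4 ± 14.2 (log2 change 0.30, adjusted p = 0.063 by limma). All 12 were picked for their likeness to genes that did not pass and were highest in embryo 5. Both traits thus follow largely from that choice and are no separate result.

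The paralogs differed from the 4 genes in 1 case. LIN28A, the relative of LIN28B that is typical of pluripotent cells, lay below the level of the main test, which required a mean of at least 10. It was at 1.31, 2.69, 3.03, 2.15 and 3.15 in the control retinas and at 0.640, 1.56, 1.22, 0.888 and 0.750 in the operated ones. It was lower in 5 of 5 embryos, although the control of embryo 1 lay under the operated retina of embryo 2. The means were 2.47 ± 0.753 and 1.01 ± 0.376 (SD, n = 5), resting on 14 to 75 reads a library. In the fit of all 12464 genes LIN28A fell, with a log2 change of -0.77 on the log2(value + 1) scale (SE 0.13, adjusted p = 0.0041 by limma), which understates the change of so low a gene. In that fit 10.1% of genes were called lower. LIN28A kept its call without each embryo in turn (adjusted p = 0.0039 to 0.024). The log2 difference of LIN28A was -0.49, -0.53, -0.86, -0.74 and -1.24 in embryos 1 to 5. Pigment epithelium markers differed in the same order by a mean of 0.15, -0.90, -0.36, -0.52 and -1.18, and mesenchyme markers by 0.19, -0.42, -0.37, -0.46 and -1.17. On this scale embryos 1 and 5 were the ends of all 3 series, while embryos 2 to 4 did not follow the same order. By the plain ratio LIN28A differed least in embryo 2 (-42.0%, against -51.1% in embryo 1) and most in embryo 5 (-76.2%). The place of embryo 1 as an end of the LIN28A series thus depended on the log2(value + 1) scale. With the pigment level as a covariate the change of LIN28A was -0.56 (adjusted p = 0.23), and with the mesenchyme level -0.53 (adjusted p = 0.11). Their part in the fall of LIN28A was not tested beyond these fits.

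IGF2BP2, the third member of its family, was at 140.1 ± 16.4 and 152 ± 15.3 (adjusted p = 0.31). HMGA1, the relative of HMGA2, was at 125 ± 7.57 and 135 ± 15.2 (adjusted p = 0.26). Both were higher in 4 of 5 operated retinas, and 0 of these 2 passed by limma (0 at an unadjusted p under 0.05). IGF2BP2 shared the embryo pattern of IGF2BP1 in part, with its lowest difference in embryo 1 (-9.68%) and its highest in embryo 3 (32.9%). Progenitor markers differed least in embryo 1 (mean log2 change 0.028) and most in embryo 3 (0.65) as well; their part in these values was not tested.

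**Figure D3:**
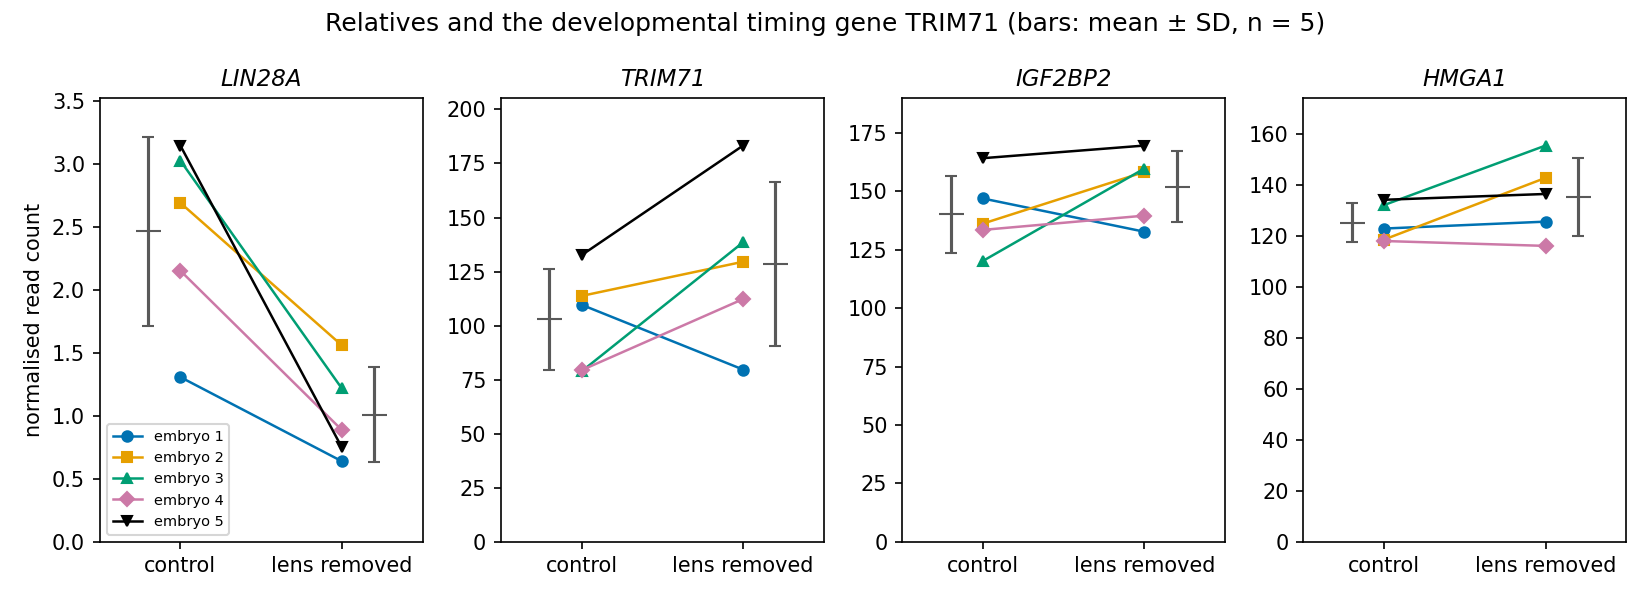
Normalised read count (vertical axes, from 0) of LIN28A, TRIM71, IGF2BP2 and HMGA1 in the control and the operated retina, 1 line per embryo, with grey bars for the mean ± SD of 5 embryos. LIN28A slopes down in 5 of 5 embryos at levels below 4, and TRIM71 slopes up in 4 of 5.

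The enzymes and cofactors that make, tail, destroy or load let-7 and other microRNAs gave no call. Of 14 tested genes 0 passed by limma, against 22.9% of all tested genes, and 3 had an unadjusted p under 0.05. The share of all tested genes at that unadjusted p is not given here, so these 3 are not read as a response. Their median log2 change was 0.071. XPO5, which exports microRNA precursors from the nucleus, was at 479.9 ± 49.3 and 450.3 ± 59.8 (adjusted p = 0.34). The silencing cofactor TNRC6A was at 216 ± 27.7 and 219.6 ± 12.9 (adjusted p = 0.77). DICER1, which cuts precursors, had a log2 change of -0.044. The terminal uridylyl transferases ZCCHC11 and ZCCHC6, which tail let-7 precursors held by LIN28A, had 0.057 and 0.085. DIS3L2, the exonuclease that degrades those tailed precursors, was named after its value was seen: it was at 35.3 and 44.3 (log2 change 0.32, SE 0.10, adjusted p = 0.056). TRIM71, the vertebrate form of the worm timing gene lin-41 and itself a let-7 target, was named in the same way. It was at 110, 114, 78.9, 79.4 and 133 in the control retinas and at 79.7, 130, 139, 112 and 183 in the operated ones. It was higher in 4 of 5 embryos and lower in embryo 1, the order of signs seen for IGF2BP3, with a log2 change of 0.30 (SE 0.15, adjusted p = 0.18). The change was 0.49 without embryo 1 (adjusted p = 0.0075) and 0.17 without embryo 3 (adjusted p = 0.41). It was 0.037 with the pigment level as a covariate (SE 0.23, adjusted p = 0.97) and 0.029 with the mesenchyme level (SE 0.19, adjusted p = 0.96). With the red cell level it was 0.41 (SE 0.21, adjusted p = 0.25). The part of these tissues in the values of TRIM71 was not tested beyond these fits.

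**Figure D4:**
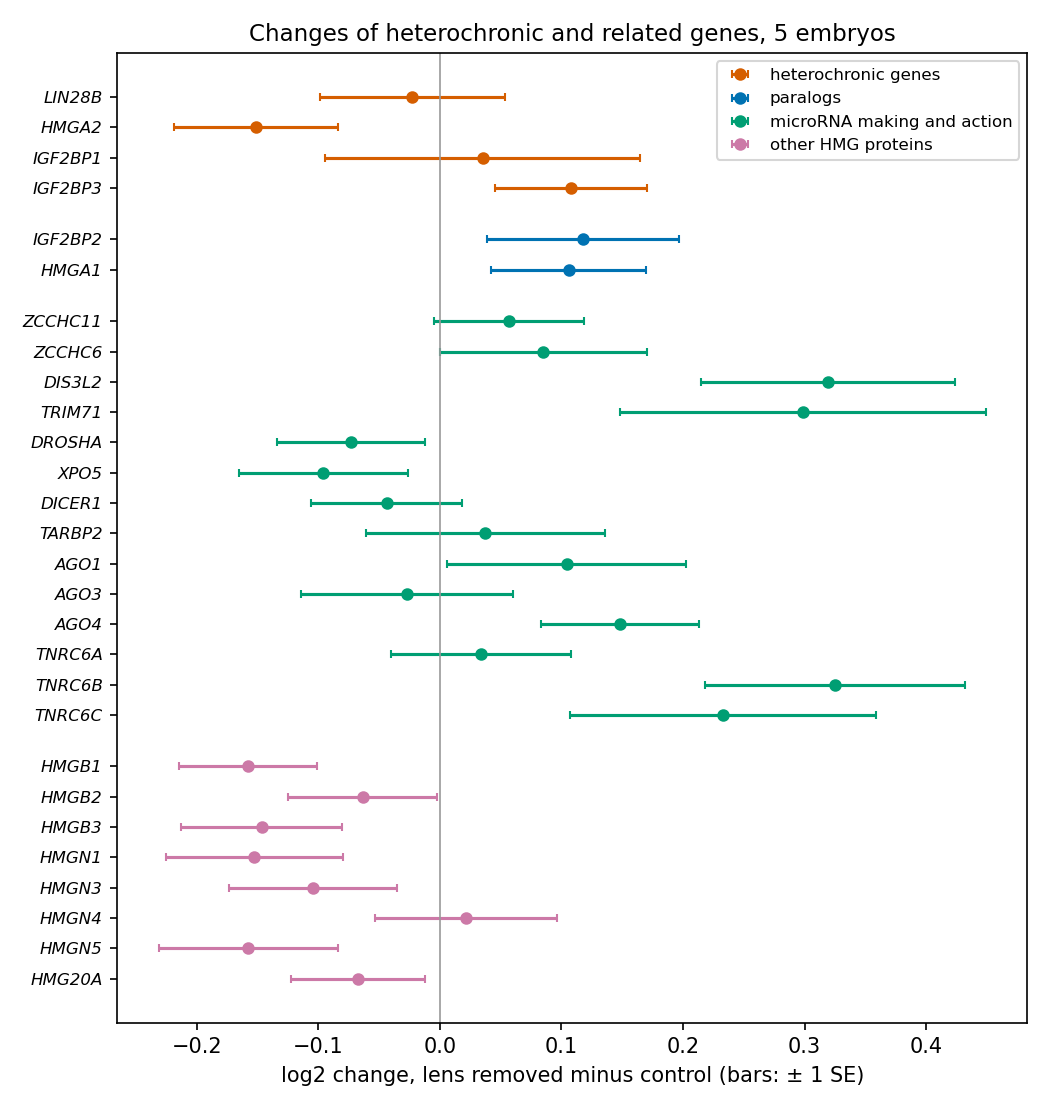
Log2 change, lens removed minus control (horizontal axis), with ± 1 SE from limma over 5 embryos, for the 4 heterochronic genes, their 2 tested paralogs, 14 genes of microRNA making and action and 8 further high mobility group proteins. None of the genes shown passed the test, and 7 of the 8 further high mobility group proteins lie below 0, HMGN4 being the exception. The median of genes with a mean of at least 50 was -0.033.

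Genes known as let-7 targets in mammals gave calls in either direction. Among the 27 tested there were 5 that rose and 3 that fell, and 19 that missed the threshold, which is 29.6% called against 22.9% of all tested genes. Their median log2 change was 0.11. IGF1R, a growth factor receptor gene, was at 66.3 ± 18.8 in control and 94.8 ± 17.5 in operated retinas, and it rose by 0.53 on the log2 scale (SE 0.12, adjusted p = 0.015). The transcription factor genes HIC2 and NR6A1 and the insulin receptor gene INSR also rose, by 0.33, 0.29 and 0.47. The cell cycle kinase gene CDK6 fell from 268 ± 29.4 to 206 ± 20.96 (log2 change -0.38, adjusted p = 0.0058), in 5 of 5 embryos. THBS1, an extracellular matrix protein, fell from 19.2 ± 2.50 to 13.9 ± 2.64, and RRM2, a subunit of ribonucleotide reductase, by 0.18 on the log2 scale. CDK6 kept its call without each embryo in turn, whereas each of the others named here lost its call without at least 1 embryo: IGF1R, HIC2 and THBS1 without embryo 2 or 4, RRM2 without embryo 2, 3 or 4, and NR6A1 and INSR without embryo 2, 3, 4 or 5. With the pigment level as a covariate 0 of the 8 were called, the lowest adjusted p being 0.11 for CDK6. The log2 change was then -0.47 for CDK6, -0.24 for RRM2 and 0.52 for IGF1R. It was nearer 0 for INSR (0.40), THBS1 (-0.34), HIC2 (0.19) and NR6A1 (0.098). The SE was larger in this fit, at 0.11 against 0.067 for CDK6 and 0.20 against 0.12 for IGF1R. Loss of a call there thus reflects lower precision as well as any change in the estimate. MYC and MYCN, which LIN28 proteins and let-7 also touch, did not pass (log2 change 0.13 and -0.25, adjusted p = 0.40 and 0.076). MYCN did pass without embryo 5 (-0.35, adjusted p = 0.014) and with the mesenchyme level as a covariate (-0.46, adjusted p = 0.041). With the red cell level it was -0.065 (adjusted p = 0.63), and it passed in no other alternative.

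Partners and cargo of the IGF2BP proteins were compared next. Of 11 partners in RNA granules 0 rose, 1 fell and 10 did not pass (9.09% called, median log2 change -0.023). Over all tested genes 22.9% were called in either direction and 12.3% lower. SYNCRIP, which sits with IGF2BP1 on MYC mRNA in human cells, fell from 503 ± 29.6 to 423 ± 13.5 (log2 change -0.25, adjusted p = 0.018). It was lower in 5 of 5 embryos, and its call was lost without embryo 2, 3 or 4. Of 10 reported target mRNAs, 1 rose and 1 fell (20% called, below the 22.9% of all tested genes, median log2 change 0.089). GAP43, a growth cone protein gene, was at 19.0 ± 6.19 and 32.2 ± 9.76 and rose by 0.74 on the log2 scale (adjusted p = 0.0068), while CDK6 is given above. GAP43 is also an early neuron marker, kept its call without each embryo in turn, and had adjusted p = 0.21 with the pigment level as a covariate. ACTB, the first known cargo of IGF2BP1, was at 2117 ± 423 and 2596 ± 511 (log2 change 0.29, adjusted p = 0.076). The log2 difference of ACTB was -0.16, 0.33, 0.67, 0.42 and 0.19 in embryos 1 to 5. That of IGF2BP1 was -0.55, 0.13, 0.55, 0.14 and -0.093. Both were lowest in embryo 1 and highest in embryo 3. So were TRIM71, INSR, IGF1R, MSI2 and the mean of the progenitor markers, but not CDK6 or THBS1. The order was thus not particular to ACTB and IGF2BP1, and a link between these genes was not tested. Of 13 tested genes for the RNA mark m6A, which IGF2BP proteins are reported to read, 0 rose and 2 fell (15.4% called, median -0.0032). Over all tested genes 12.3% were called lower. These were the writer subunits ZC3H13 (560 ± 33.9 to 492 ± 16.9) and METTL14 (101 ± 5.78 to 85.4 ± 7.89). Both calls were lost without embryo 2, 3, 4 or 5.

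Other high mobility group proteins of chromatin were set beside HMGA2. Of 9 tested 0 passed by limma, against 22.9% of all tested genes, and 1 had an unadjusted p under 0.05. Their median log2 change was -0.10. It was -0.0013 over all tested genes and -0.033 over genes with a mean of at least 50. HMGN5, a nucleosome-binding protein gene, was at 1251 ± 144 and 1116 ± 63.2 (adjusted p = 0.15), and HMGB1 at 1176 ± 78.8 and 1053 ± 40.5 (adjusted p = 0.075). HMGB1 was lower in 5 of 5 embryos, as HMGA2 and 17.2% of all tested genes were. Of 17 cell cycle genes 0 rose and 5 fell (29.4% called, median -0.10). Over all tested genes 22.9% were called in either direction and 12.3% were called lower. The part of the cell cycle genes in the values of the high mobility group genes was not tested. Those that fell included MCM6 from 421 ± 23.9 to 353 ± 7.02 and AURKA from 147 ± 18.6 to 119 ± 12.02. The call of MCM6 was lost without embryo 2 or 4, and that of AURKA without embryo 2, 4 or 5.

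The insulin-like growth factor genes, whose ligand IGF2 names the IGF2BP family, had 4 of 7 tested higher and 0 lower (57.1% called, median 0.26). Over all tested genes 22.9% were called, 10.6% higher. Beside IGF1R and INSR, already counted among the let-7 targets, these were IGF2R (71.5 to 82.3) and IRS4 (51.4 to 61.5). IGF2 mRNA itself lay under the tested level at 9.52 ± 2.42 and 7.72 ± 3.41. It was lower in 4 of 5 operated retinas and did not pass in the fit of all genes (log2 change -0.32, adjusted p = 0.051 by limma). The calls of IGF2R and IRS4 were lost without embryo 2, 3, 4 or 5. With the pigment level as a covariate 0 of the 4 were called. The log2 change of IGF1R was 0.52 and that of INSR 0.40 in that fit, each with a larger SE.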

How the data were processed

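Polyadenylated RNA of 10 retinas was sequenced from stranded libraries as 75 bp paired-end reads, all in 1 batch, per the labels' protocols. The submitters' processing notes name the build GRCg6a, the aligner HISAT2 2.1.0, the counter featureCounts with Subread 1.6.2, SAMtools 1.9, Trim Galore 0.6.4 and FastQC 0.11.8. The authors deposited 1 table of normalised read counts, treated here as a signal, and its scaling method is not given in the sources used here. A smallest spacing of low values gave each library's depth: 1 read was worth 0.0385 to 0.0536 units. Of values up to 400 reads, 89.9% to 91.6% were whole within 0.01 read, and others held part-counted reads, so no count model was used. Counting errors cover counting only.

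Genes whose mean over the 10 libraries reached 10 were fitted on log2(value + 1) with limma 3.58.1 (R 4.3.3), with an intensity trend and the embryo as a block, two-sided, with Benjamini-Hochberg adjustment over all tested genes and a threshold of 0.05. The words rose and fell are kept for genes that passed. Counts at an unadjusted p under 0.05 are given without the share of all tested genes at that p, so no excess is read from them. The SE and interval come from this fit. Both retinas of a pair come from the same embryo. The deviations from the group means correlated at 0.31, 0.76, 0.45, 0.68 and 0.59 within embryos 1 to 5. The control of embryo 1 correlated slightly more with the operated retina of embryo 4 (0.34) than with its own. Every other control correlated best with its own pair. On simulated data with 8951 genes, 73.5% of genes changed by 0.5 and 98.0% of those changed by 1 (log2) were called. Python 3.11.15 was used for the other steps.

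The 4 genes and the 19 gene lists were chosen with earlier results of these data known. Named were all 4 genes, from each list the called genes of lowest p, at most 4, or with none called the 2 most abundant, and the 3 genes most like each. Some genes that the rule names are not reported here. Genes named outside this rule were chosen after their values were seen: DIS3L2, TRIM71, ACTB, MYC, MYCN, DICER1, ZCCHC11, ZCCHC6, HIC2, NR6A1, RRM2, IGF2, SIX6, PTBP1, CPEB4, CASZ1, NFIA, NFIB, NFIC and NFIX. A total of 16 alternatives were run, and those for LIN28A and the values without embryo 5 were added after the data were seen.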

Additional observations from a re-analysis of the deposited data

Results flagged for a closer look

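Each gene's 5 values in a group, and its 5 within-embryo log2 changes, were searched for a single value far from the rest. The measure was the gap to the nearest value divided by the whole range (limit 0.71 for 5 values). Of 12 such sets tested, 2 passed. Chance alone gives about 1 in 20 for independent sets, and these sets share embryos. LIN28B in the operated retina of embryo 5 was at 169, a gap of 0.727 of the range. HMGA2 in the control retina of embryo 5 was at 75.7, a gap of 0.799 of the range. Both lie in the same embryo, in opposite eyes.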

How the results depend on the processing

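Under the 16 alternatives 0 of the 4 genes were called. HMGA2 kept its direction in 16 of 16 (adjusted p = 0.129 to 0.515) and IGF2BP3 in 16 of 16 (0.0514 to 0.921). With no filter, a mean of at least 50, no replicate block or a robust variance prior, the log2 change is fixed. Those alternatives could not have altered a direction. LIN28B turned to 0.0058 with quantile normalisation and 0.13 with the red cell covariate. With the pigment and mesenchyme covariates it was -0.21 and -0.195 (adjusted p = 0.40 and 0.25 by limma), against -0.023 in the main fit. HMGA2 was at -0.26 and -0.25 with these covariates (adjusted p = 0.32 and 0.22) and at -0.099 with the red cell covariate, against -0.15. IGF2BP1 turned to -0.10 with the pigment covariate and -0.079 with the mesenchyme covariate. The causes were not tested. Leaving out 1 embryo at a time gave -0.0997 to 0.029 for LIN28B (above 0 without embryo 1 and, at 0.0028, without embryo 3), -0.18 to -0.10 for HMGA2, -0.094 (without embryo 3) to 0.18 for IGF2BP1 and 0.068 to 0.16 for IGF2BP3. Over all genes it gave 387 to 1378 higher and 301 to 1468 lower, against 963 and 1112, with 438 and 377 without embryo 2 and the fewest without embryo 4. A mean of at least 50 left 412 higher, with fewer genes tested. With the pigment covariate 95 were higher and 11 lower, with the mesenchyme covariate 161 and 46, and with the red cell covariate 414 and 314. The SE of HMGA2 was 0.105, 0.091 and 0.090 in these fits, against 0.067 in the main fit. With no replicate block, which drops the pairing by embryo, 701 were higher and 783 lower. The changes of LIN28B (-0.023), HMGA2 (-0.15), IGF2BP1 (0.035) and IGF2BP3 (0.11) had adjusted p = 0.92, 0.45, 0.93 and 0.37 there. The calls of HIC2, IGF1R, GAP43 and IRS4 were lost with no replicate block (adjusted p = 0.051, 0.064, 0.060 and 0.083). Calls were also followed for the lists other than the cell type markers and the cell cycle genes. Of their 16 called genes, 2 kept their call without each embryo in turn and 12 with no replicate block. With the pigment or mesenchyme covariate 0 kept it, and with the red cell covariate 1 did. LIN28A kept its call in 12 of 14 alternatives. HMGA2, at 1058 reads or more, had counting errors of about the size of its smaller differences.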

Other observations

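Other RNA-binding proteins of neural progenitors mostly did not pass. There were 11 tested, with 1 called higher and 1 lower (18.2% called, against 22.9% of all tested genes, median log2 change 0.12). MSI2, a Musashi protein that represses translation in stem cells, rose from 224 ± 33.0 to 308 ± 33.9 (log2 change 0.47, adjusted p = 0.0094 by limma) in 5 of 5 embryos, and lost its call without embryo 4. Its difference was smallest in embryo 1 (0.053) and largest in embryo 3 (0.69). SYNCRIP, in this list too, fell. The splicing repressor PTBP1 was at 609 ± 29.5 and 564 ± 15.4, lower in 5 of 5 embryos (adjusted p = 0.14). CPEB4, below the level tested, rose from 6.73 ± 0.904 to 9.11 ± 1.42 in the fit of all genes (log2 change 0.38, adjusted p = 0.045). That fit called 1428 of 12464 genes higher, and the call of CPEB4 was not followed under the alternatives.

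Transcription factors of progenitor timing had 1 of 5 tested higher and 0 lower (20% called, median log2 change 0.21). Over all tested genes 22.9% were called in either direction and 10.6% higher. FOXN4, which primes progenitors for amacrine and horizontal cells in the mouse, rose from 99.9 ± 7.69 to 124 ± 9.90 (log2 change 0.31, adjusted p = 0.018 by limma) in 5 of 5 embryos, and lost its call without embryo 2 or 4. CASZ1, a factor of progenitor competence in the mouse, was at 30.2 ± 6.30 and 41.0 ± 5.93 (adjusted p = 0.068). The NFI factors, of which NFIA, NFIB and NFIX mark late progenitors in the mouse, lay below the level tested. In the fit of all genes NFIC rose from 2.52 ± 0.760 to 4.61 ± 1.25 (log2 change 0.67, adjusted p = 0.021 by limma) in 5 of 5 embryos, and the other 3 did not pass. That fit called 1428 of 12464 genes higher, and the call of NFIC was not followed under the alternatives.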
